A study of Rattus norvegicus with 9 samples.

Results

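Histamine and monoamine genes were followed in the hypothalamus of 9 rats. The set comprised Hdc, Th, Ddc, Slc18a2, Maoa, Maob, Hrh3 and Htr2c, taken as every probe set (a group of array probes for 1 transcript) that the platform annotation names with 1 of these symbols alone. That gave 13 of 31042 probe sets, and all 8 genes had at least 1. The rats were male and aged 13 weeks, with 1 array each. In the noodle group, 4 rats (numbers 1, 4, 7 and 13) ate a medium-fat diet holding 30% instant noodle by weight, with its seasonings, at 26% of energy from fat. In the control group, 5 rats (numbers 2, 5, 8, 11 and 14) ate the diet with the seasonings left out. Pair feeding held intake near 60 g daily per kg of body weight in both groups, for 30 days by one label and 4 weeks by another, and the question was whether the seasonings change hypothalamic mRNA. The strain, the hour of dissection and the limits of the dissected block are not stated in the sources used here. RNA came from tissue, so fewer cells of a type and less RNA per cell cannot be told apart.

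Histamine in the brain is made by neurons of the tuberomammillary nucleus in the posterior hypothalamus, where histidine decarboxylase, the product of Hdc, converts histidine in 1 step. Tyrosine hydroxylase (Th) and aromatic amino acid decarboxylase (Ddc) carry out the steps that give dopamine, and Ddc also gives serotonin. The vesicular monoamine transporter VMAT2 (Slc18a2) loads histamine, dopamine, noradrenaline and serotonin into vesicles alike. The monoamine oxidases Maoa and Maob break monoamines down, and Maob also oxidizes the methylated product of histamine. The H3 receptor (Hrh3) curbs histamine release from the neurons that make it, and the serotonin receptor 5-HT2C (Htr2c) takes part in the serotonergic curb on feeding.

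The upstream sequences of 3 genes are shown because each had at least 1 probe set that varied between rats with a higher mean on the noodle diet. None of these differences passed the test described below. Each is the 250 bases before the gene's start in RefSeq (build GRCr8), written along the gene's own strand. That of Hdc is chr3:134318705-134318954 (minus strand), that of Slc18a2 is chr1:268399771-268400020 (plus strand) and that of Maob is chrX:8490155-8490404 (plus strand). Capitals mark exact matches, on either strand, to TATAAA (the TATA box), to CCAAT (the CCAAT box), to GGGCGG (the GC box) or to TGACG (the core of a cyclic AMP response element).
Hdc: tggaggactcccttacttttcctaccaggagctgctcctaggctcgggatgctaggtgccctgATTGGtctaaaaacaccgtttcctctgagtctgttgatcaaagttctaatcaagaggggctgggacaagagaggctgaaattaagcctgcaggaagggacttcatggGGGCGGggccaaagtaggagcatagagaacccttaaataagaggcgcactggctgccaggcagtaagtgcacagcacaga
Slc18a2: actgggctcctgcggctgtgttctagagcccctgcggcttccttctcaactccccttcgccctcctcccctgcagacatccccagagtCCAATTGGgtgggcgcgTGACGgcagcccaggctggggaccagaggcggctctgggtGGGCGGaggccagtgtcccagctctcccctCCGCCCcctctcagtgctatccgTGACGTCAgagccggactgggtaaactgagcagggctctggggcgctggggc
Maob: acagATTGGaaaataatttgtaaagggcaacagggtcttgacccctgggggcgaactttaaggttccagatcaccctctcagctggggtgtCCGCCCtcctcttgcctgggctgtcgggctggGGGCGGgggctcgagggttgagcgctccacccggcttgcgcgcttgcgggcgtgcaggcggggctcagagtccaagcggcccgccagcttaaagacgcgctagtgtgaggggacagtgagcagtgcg
The Hdc sequence holds 1 CCAAT box (read on the other strand, as ATTGG) and 1 GC box, and 0 matches to the other motifs. That of Slc18a2 holds 2 CCAAT boxes, which overlap on opposite strands, 2 GC boxes and 3 cyclic AMP element cores, of which 2 overlap on opposite strands. In Maob the window has 1 CCAAT box and 2 GC boxes. Over the 33469 windows of this length in the same table, 34.02% hold a CCAAT box, 30.47% a GC box, 18.22% a cyclic AMP element core and 12.93% a TATA box, so such matches are common and only describe the letters of the window.

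Of the 8 genes, 4 had a probe set that varied between animals and 4 had none. Values are log2 expression values as the authors deposited them. A probe set is called variable where its values spanned over 0.05 log2 units across the 9 rats, and compressed where they spanned under 0.01. By that measure 5 of the 13 probe sets were variable, namely those of Hdc and Maob, 2 of 3 of Slc18a2 and 1 of 2 of Htr2c. The other 8 were compressed, with spans of 0.00019 (Maoa) to 0.0012 (Ddc). Over all probe sets 3.94% were variable and 95.9% compressed, with a median span of 0.00052. The genes and these limits were chosen with earlier results of these data known, so no contrast is drawn between these shares. Th, Ddc, Maoa and Hrh3 had compressed probe sets alone, so their values carry almost no spread to compare, and how the compression arose is not stated in the sources used here.

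**Figure D1:**
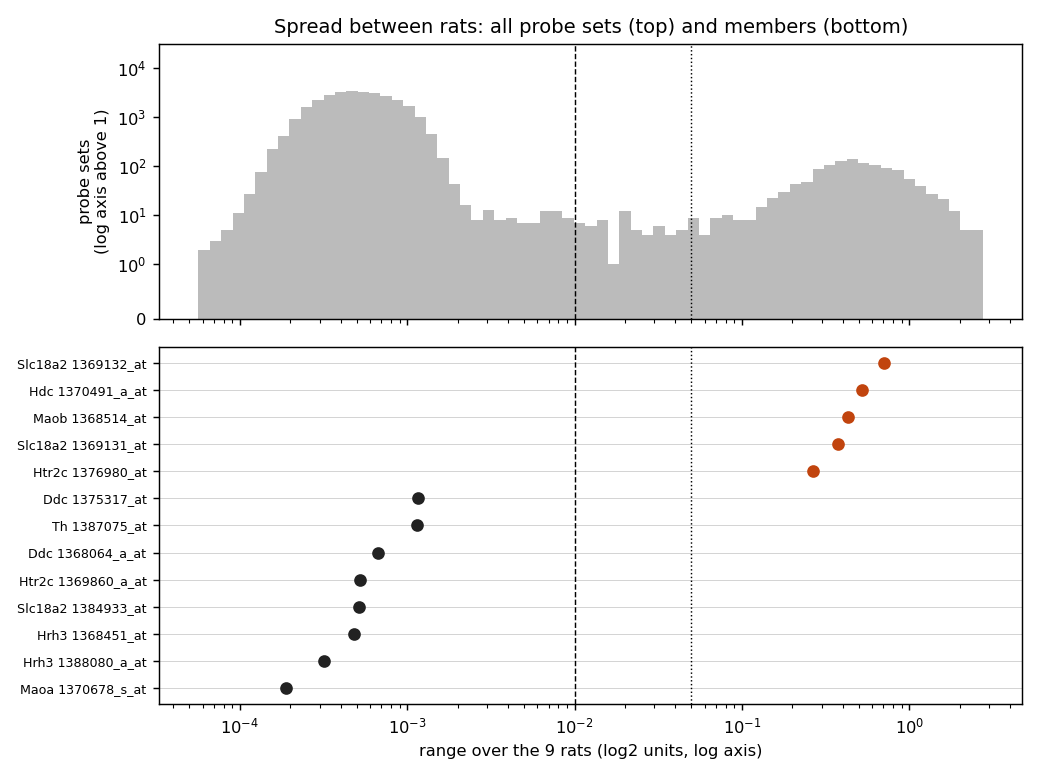
Span of log2 values over the 9 rats (log axis) for all 31042 probe sets (top, number of probe sets on an axis that is logarithmic above 1) and for each of the 13 histamine and monoamine probe sets (bottom; orange variable, black compressed). The dashed line stands at 0.01 and the dotted line at 0.05; 5 members lie in the right-hand hump and 8 in the left.

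None of the 13 probe sets differed between the diets by the test. By limma (a moderated linear model with Benjamini-Hochberg adjustment over 31042 probe sets), 0 of 13 had an adjusted p under 0.05, 0 had an unadjusted p under 0.05, and every adjusted p rounded to 1. The exact permutation test over every split of the 9 rats into 4 and 5 gave 0 with p under 0.05. Among all probe sets limma called 0%, and 2.29% had an unadjusted p under 0.05. Among the 1223 variable ones that share was 0.899%. Diet groups that did not overlap were found for 0 of the 13, against 0.567% of all probe sets. Of the 5 variable probe sets, 4 had the higher mean on the noodle diet and 1 (Htr2c) the lower, with a median difference of 0.11 log2 units. The median was 0.0035 over all variable probe sets, of which 51.9% had the higher mean on the noodle diet. The 4 are not independent, as both variable probe sets of Slc18a2 are among them and varied with Hdc across the rats. Without control rat 14, Slc18a2 1369131_at turned to -0.0080. The split therefore does not show a shift of these genes as a group.

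Hdc, the enzyme that makes histamine, had the widest gap relative to its error among the 5 variable probe sets of these genes. Ordered by unadjusted limma p, it stood at place 17 of the 1223 variable probe sets of the array. Probe set 1370491_a_at measured 8.60, 8.53, 8.49 and 8.50 in noodle-diet rats 1, 4, 7 and 13, against 8.25, 8.61, 8.34, 8.37 and 8.09 in control rats 2, 5, 8, 11 and 14. The 4 noodle-diet rats lay close together and above 4 of the 5 controls, while control rat 5 was the highest of all 9 rats and control rat 14 the lowest. Means were 8.53 ± 0.048 in noodle-diet rats, against 8.33 ± 0.19 in control rats (SD, n = 4 and 5). The difference of 0.20 (SE 0.094, 95% interval -0.020 to 0.41) corresponds to 1.15-fold on the deposited scale, with an interval of 0.987 to 1.33. It did not pass limma's test (unadjusted p = 0.0690, adjusted p = 1; exact 2-sided permutation p = 0.0873). Without control rat 5 the difference was 0.27 (limma, unadjusted p = 0.0045, adjusted p = 1), and without control rat 14 it was 0.14 (unadjusted p = 0.115).

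Hdc is also a gene of mast cells, and mast cells can lie in the coverings of the brain. All 9 probe sets of the 8 mast cell markers listed (Cpa3, Tpsb2, Tpsab1, Cma1 and others) were compressed, so they do not show whether mast cell content moved with Hdc. Of 6 other genes listed for tuberomammillary neurons, 5 were measured and 2 were variable. The variable ones were Ada (adenosine deaminase, long used to stain these neurons in rats) and Gad1, which makes GABA throughout the hypothalamus. Ada stood at 6.49 in control rat 14, the lowest of the 9 rats, but at 6.97 in control rat 2, the highest, where Hdc was low. Both probe sets of Gad1 were highest in control rat 14, at 11.04 and 7.49, where Hdc was lowest. The mean log2 level of the 3 variable probe sets of this list ran from 8.18 to 8.32 on the noodle diet, against 8.22 to 8.34 on the control diet. This mean holds both probe sets of Gad1, so it does not read tuberomammillary neurons alone. Ada was also low in control rat 11 (6.55). Control rats 11 and 14 were the lowest for the meningeal and fibroblast markers described below (-0.49 and -0.56 against the mean of the 9 rats). The relation of these markers to Hdc was not tested.

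Slc18a2, the vesicular transporter, was read by 3 probe sets that did not give 1 answer. Probe set 1369132_at measured 7.34, 7.12, 7.03 and 7.13 in noodle-diet rats 1, 4, 7 and 13, against 6.64, 7.16, 7.02, 7.12 and 6.74 in control rats 2, 5, 8, 11 and 14. The noodle-diet rats lay above 3 of the 5 controls, and control rats 2 and 14 were the lowest. Its means were 7.15 ± 0.13 in noodle-diet rats, against 6.94 ± 0.24 in control rats (SD, n = 4 and 5), a difference of 0.22 (SE 0.13, interval -0.074 to 0.51). Limma gave an unadjusted p of 0.123 and an adjusted p of 1, and the exact permutation p was 0.190. Without noodle-diet rat 1 the difference was 0.16, and without control rat 2 it was 0.14.

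Probe set 1369131_at of Slc18a2 measured 8.15, 8.06, 8.04 and 8.04 in noodle-diet rats 1, 4, 7 and 13, against 7.98, 8.13, 8.06, 8.14 and 7.77 in control rats 2, 5, 8, 11 and 14. Here only control rats 2 and 14 lay below the noodle-diet rats. The difference was 0.053 (SE 0.076, interval -0.12 to 0.23; limma, adjusted p = 1), and without control rat 14 it turned to -0.0080. The third, 1384933_at, was compressed at 7.996 in all 9 rats. With both variable probe sets averaged, the difference of Slc18a2 was 0.14 (limma, adjusted p = 1).

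Maob, which oxidizes phenylethylamine, dopamine and the histamine product, had the highest value in noodle-diet rat 1. Probe set 1368514_at measured 10.23, 10.04, 10.02 and 10.08 in noodle-diet rats 1, 4, 7 and 13, against 10.01, 10.03, 9.80, 10.09 and 9.96 in control rats 2, 5, 8, 11 and 14. The diets overlapped, and control rat 8 was the lowest. Means were 10.09 ± 0.093 in noodle-diet rats, against 9.98 ± 0.11 in control rats (SD, n = 4 and 5). The difference of 0.11 (SE 0.066, interval -0.040 to 0.27) did not pass (limma, unadjusted p = 0.126, adjusted p = 1; exact permutation p = 0.151). Leaving out noodle-diet rat 1 gave 0.068, and leaving out control rat 8 also gave 0.068. Its relative Maoa, read by 1370678_s_at, was compressed at 9.52 in all 9 rats. In the manufacturer's naming, the ending _s_at marks probes that match more than 1 transcript, which may belong to different genes.

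Htr2c, the serotonin receptor, differed least between the diets among the 5 variable probe sets of these genes. Probe set 1376980_at measured 9.54, 9.67, 9.65 and 9.67 in noodle-diet rats 1, 4, 7 and 13, against 9.55, 9.60, 9.59, 9.64 and 9.80 in control rats 2, 5, 8, 11 and 14. Control rat 14, the lowest for Hdc, was the highest here, and noodle-diet rat 1, the highest for Maob, was the lowest. The difference was -0.0036 (SE 0.055, interval -0.13 to 0.12; limma, adjusted p = 1), and its direction depended on single rats, at 0.027 without noodle-diet rat 1 and 0.039 without control rat 14. On the deposited scale the interval spans 0.914-fold to 1.09-fold. A second probe set, 1369860_a_at, was compressed at 6.83. Epithelial cells of the choroid plexus are a strong source of this receptor. Of that tissue's 9 measured markers 2 were variable, Ttr and Enpp2, and their mean log2 level ran from 7.65 to 8.81 on the noodle diet, against 7.76 to 8.70 on the control diet. In control rat 14 this level stood at -0.46 against the mean of the 9 rats, while Htr2c stood at 0.17 against its own. The marker level was lower still in noodle-diet rat 7 (-0.59) and control rat 11 (-0.48), where Htr2c measured 9.65 and 9.64. Both markers did not vary alike: Ttr was lowest in noodle-diet rat 7 (5.68) and Enpp2 in control rat 14 (9.49). The part of the choroid plexus in the Htr2c values was not tested.

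**Figure D2:**
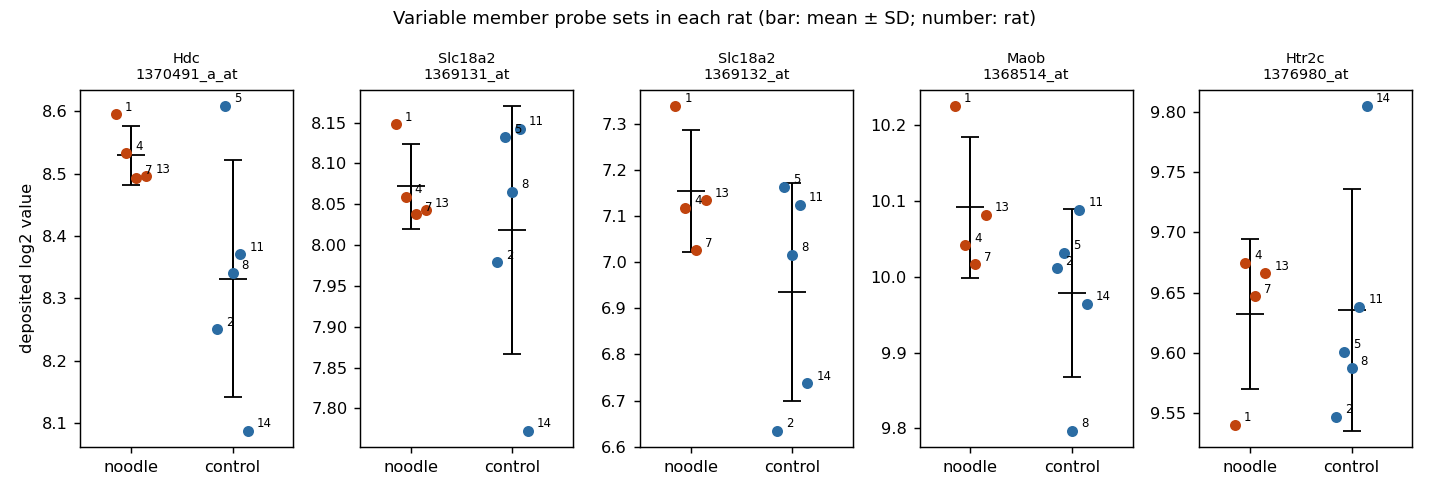
Deposited log2 values of the 5 variable probe sets in each rat, noodle diet left of control diet, with rat numbers beside the points and the mean ± SD as bars (n = 4 and 5). Each panel has its own axis; the diets overlap in all 5 panels, and control rat 14 is the lowest point for Hdc and the highest for Htr2c.

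**Figure D3:**
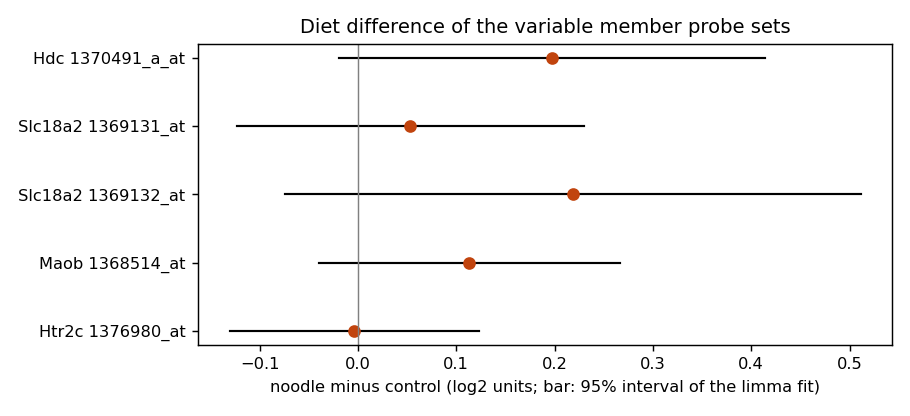
Difference between diets (noodle minus control, log2 units) for the 5 variable probe sets, with the 95% interval of the limma fit. All 5 intervals include 0, from -0.020 to 0.41 for Hdc and from -0.13 to 0.12 for Htr2c.

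The genes of catecholamine synthesis and the H3 receptor gave no usable contrast. Th, the rate-limiting enzyme of dopamine synthesis, stood at 7.75 in all 9 rats (1387075_at, difference -0.00019). Ddc stood at 8.39 (1368064_a_at, -0.00014) and 6.74 (1375317_at, -0.00015), and Hrh3 at 8.30 (1368451_at, -4.6e-05) and 6.74 (1388080_a_at, -4.6e-05). Over the 8 compressed probe sets the differences ran from -0.00019 to 0.00014, with 1 higher and 7 lower on the noodle diet, and the smallest unadjusted p by limma was 0.241.

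Hdc and Slc18a2 varied together across the animals. Over the 9 rats, Hdc and Slc18a2 1369132_at had a Pearson r of 0.853 (exact permutation p = 0.0033) and a Spearman rho of 0.883 (exact permutation p = 0.0031). Adjusted over the 10 pairs of variable probe sets, these p-values were 0.0312 and 0.0308. With Slc18a2 1369131_at, Hdc had an r of 0.820 (exact permutation p = 0.0086, adjusted 0.0312) and a rho of 0.650 (exact p = 0.0666, adjusted 0.111). Both variable probe sets of Slc18a2 had an r of 0.787 with each other (exact p = 0.0094, adjusted 0.0312; rho 0.783, exact p = 0.0172, adjusted 0.0574). With the diet means taken out, the r values with Hdc were 0.790 for 1369132_at and 0.870 for 1369131_at. The relation rested largely on control rats 2 and 14, the rats farthest from the Hdc median. Without them r was 0.648 over 7 rats for 1369132_at (exact p = 0.0976) and 0.226 for 1369131_at (exact p = 0.576).

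**Figure D4:**
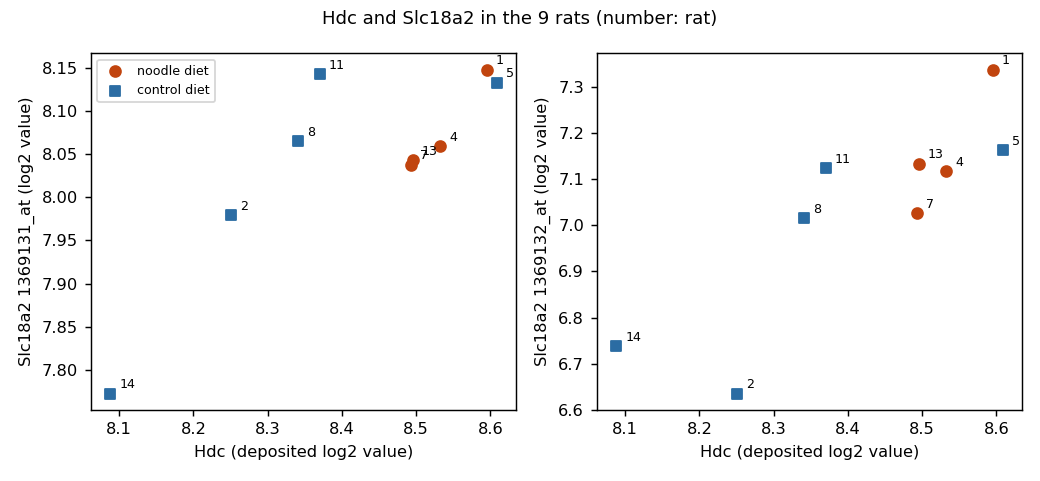
Hdc (horizontal axis) against the 2 variable probe sets of Slc18a2 (vertical axes), all as deposited log2 values, 1 point per rat with its number. Control rats 2 and 14 lie at the lower left in both panels, and noodle-diet rat 1 and control rat 5 at the upper right.

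None of the remaining pairs had an adjusted p under 0.05 by r or by rho. Maob had an r of 0.507 with Hdc (exact permutation p = 0.166; rho 0.650, exact p = 0.0666), 0.516 with Slc18a2 1369132_at (exact p = 0.160; rho 0.817, exact p = 0.0108) and 0.386 with 1369131_at (exact p = 0.263; rho 0.650, exact p = 0.0666). Adjusted over the 10 pairs, the p-values of r were 0.277, 0.277 and 0.328, and those of rho 0.111, 0.0538 and 0.111. Without control rats 2 and 14, the r of Maob with 1369132_at was 0.834 over 7 rats (exact p = 0.0431), higher than with all 9. All 4 pairs with Htr2c had a negative r. The r was -0.720 with 1369131_at (exact p = 0.0479, adjusted 0.120; rho -0.517, exact p = 0.162, adjusted 0.231). This r turned to 0.270 without noodle-diet rat 1 and control rat 14. With Hdc the r of Htr2c was -0.481 (exact p = 0.194, adjusted 0.277; rho -0.183, exact p = 0.644, adjusted 0.715). It was -0.292 with Slc18a2 1369132_at (exact p = 0.433, adjusted 0.481; rho -0.200, exact p = 0.613, adjusted 0.715) and -0.203 with Maob (exact p = 0.579, adjusted 0.579; rho -0.133, exact p = 0.744, adjusted 0.744).

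The genes with the most similar pattern were sought among all variable probe sets with a name, by Pearson r over the same 9 arrays, as a description. For Hdc they were Slc18a2 itself (r 0.853), the astrocytic water channel gene Aqp4 (0.850), Arhgef3 (0.844) and Ankrd12 (0.816). Of 1222 other variable probe sets, 1369132_at of Slc18a2 stood first in likeness to Hdc and 1369131_at stood at place 4, whereas Maob stood at place 168 and Htr2c at place 1181. Once the diet means were taken out, the 4 leading genes for Hdc were Rnaset2, the myelin gene Mbp, Scd and Plekhh1, and 0 of the first 4 remained among them. For Slc18a2 1369132_at the leading genes were Plekhh1 (0.891), the calcium-binding protein gene Pvalb (0.884), Prss23 (0.884) and Hdc (0.853). For 1369131_at they were Ecrg4 (0.905), Arhgef3 (0.872), the collagen receptor gene Ddr1 (0.849) and the linker histone gene H1f2 (0.841).

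Maob and Htr2c had other neighbours. Those of Maob were Fndc3c1 (0.942), the carboxylesterase gene Ces1d (0.898), the retinol transport receptor gene Stra6 (0.867) and Hey2 (0.866). Those of Htr2c were Vsnl1 (0.947) and Sncb (0.913), which code for the neuronal proteins visinin-like 1 and beta-synuclein, the globin gene Cygb (0.894) and Tac3 (0.876), which codes for neurokinin B. With the diet means taken out, 4 of 4 remained for Htr2c and 2 of 4 for Maob.

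Other cell and tissue types varied along with these probe sets, and their part in the results was not tested. Those described here are not the only ones. Over the 9 rats, the mean of the variable oligodendrocyte markers had a Pearson r of 0.593 with Slc18a2 1369132_at. Ppp1r1b, the 1 variable striatal marker, had 0.852 with Maob. Prlr, the 1 variable marker listed for arcuate dopamine neurons, had -0.775 with Slc18a2 1369132_at. The mean of the variable astrocyte markers had 0.690 with Hdc. With Htr2c the meningeal and fibroblast markers had -0.793, the ependymal markers -0.691 and the astrocyte markers -0.673. The hypothalamic genes had 0.670 with Htr2c, the neuron markers 0.623, the choroid plexus markers -0.566 and the microglia markers -0.507. Of 8 anterior pituitary markers, all measured, only Tshb and Cga were variable, while Gh1, Prl, Lhb, Fshb, Pou1f1 and Pitx1 were compressed. The mean log2 level given here therefore reads Tshb and Cga alone, not the list as a whole. It ran from 9.99 to 11.3 on the noodle diet, against 9.21 to 11.2 on the control diet. Set against the mean of the 9 rats it stood at -1.07 in control rat 14, -0.90 in control rat 8 and -0.80 in control rat 2. In these control rats Hdc and Slc18a2 1369132_at lay below every noodle-diet rat. In control rat 8 they measured 8.34 and 7.02, while Slc18a2 1369131_at, at 8.06, lay within its noodle-diet range. Over the 9 rats this level had a Pearson r of 0.764 with Hdc, 0.687 with 1369132_at and 0.635 with 1369131_at. Of 10 astrocyte markers 6 were variable, with a mean level of 9.68 to 9.99 on the noodle diet, against 9.60 to 9.96 on the control diet. These were highest in noodle-diet rat 1 (0.21 above the mean) and control rat 5 (0.18 above), the pair highest for Hdc, and lowest in control rat 14 (-0.18). Aqp4, named above, is 1 of these markers. Of 10 meningeal and fibroblast markers all were variable, with a mean level of 6.85 to 7.95 on the noodle diet, against 6.71 to 7.74 on the control diet, highest in noodle-diet rat 1 and lowest in control rat 14, the reverse of Htr2c. The deposited values used here carry no detection call, so no marker can be said to be absent. Of 15 measured hypothalamic genes, 9 were variable, Hcrt, Pmch, Avp and Oxt among them, with a mean level of 9.44 to 9.89 on the noodle diet, against 9.52 to 9.89 on the control diet. Against the mean of the 9 rats this level was lowest in noodle-diet rat 1 (-0.30), the rat highest for Maob and lowest for Htr2c. The 9 variable genes did not move alike in that rat. Oxt (8.66), Avp (10.49), Trh (8.39) and the variable probe set of Gnrh1 (5.99) were at their lowest of the 9 rats. Npy (8.94) was at its highest, and Cartpt (10.85) and Pmch (12.22) lay above both of their diet means. Hcrt (9.70) and Sst (9.71) were at neither end.

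**Figure D5:**
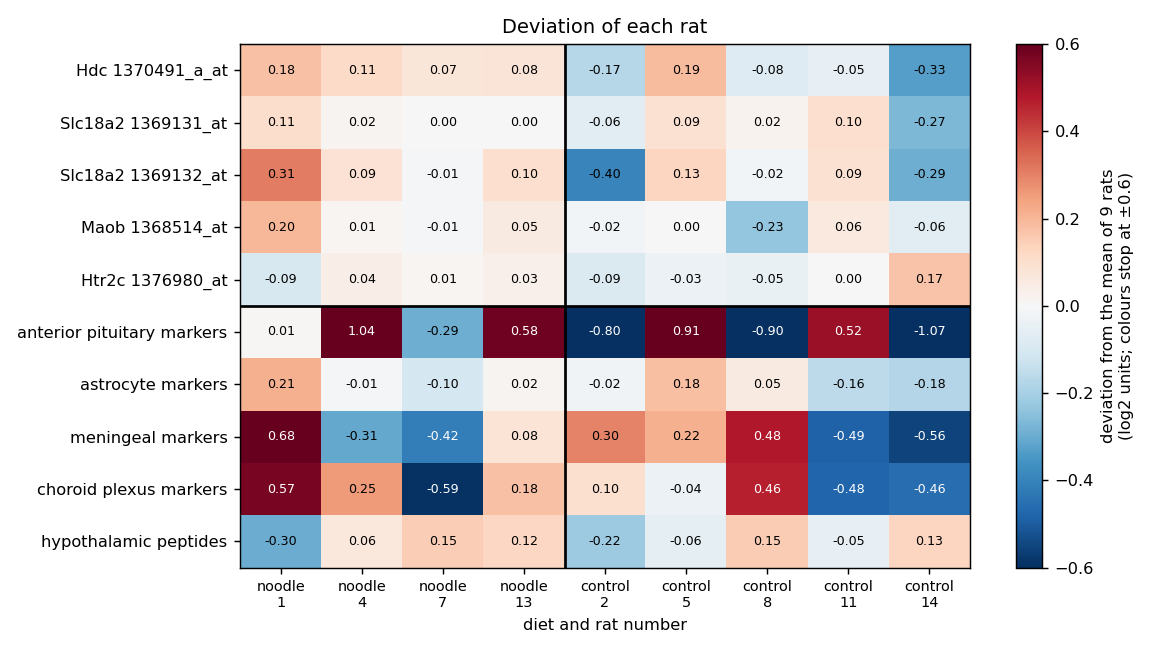
Deviation of each rat from the mean of the 9 rats (log2 units, colours stop at 0.6 either way) for the 5 variable probe sets (above the line) and for the mean of the variable members of 5 marker lists (below it), with the noodle diet left of the control diet. Control rat 14 is low for Hdc, Slc18a2, the 2 variable pituitary markers (Tshb and Cga), and the astrocyte, meningeal and choroid plexus markers. It is high for Htr2c.

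The rest of the histamine and monoamine systems was almost wholly compressed. Of 54 further genes listed, 46 were measured by 65 probe sets, and 4 of these were variable. Limma called 0 of the 65 (background 0%), and by the same limma fit 1 had an unadjusted p under 0.05 (background 2.29%). It was a compressed probe set of the serotonin receptor gene Htr6 (difference 0.00035; limma, unadjusted p = 0.0144, adjusted p = 1). On the noodle diet 32 were higher and 33 lower, with a median difference of -3.7e-06, against -4.6e-06 over all probe sets. After quantile normalization the split was 16 higher and 49 lower, so the direction of some of these values changed with the scaling. The split over all probe sets after quantile normalization is not given here, so the change cannot be read as one of these genes. All probe sets of dopamine receptors (8), serotonin receptors other than Htr2c (20), adrenergic receptors (11), monoamine transporters of the cell membrane and Slc18a1 (6), and histamine turnover and the other histamine receptors (9, with Hnmt, Hrh1 and Hrh2) were compressed.

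The 4 variable probe sets of that list belonged to enzymes. Qdpr, which renews the cofactor of Th, measured 10.62 ± 0.051 in noodle-diet rats, against 10.61 ± 0.12 in control rats (SD, n = 4 and 5). Aldh2, which clears the aldehydes that monoamine oxidases form, measured 8.66 ± 0.047 in noodle-diet rats, against 8.69 ± 0.13 in control rats. Aldh1a1, a second aldehyde dehydrogenase, measured 8.28 ± 0.074 in noodle-diet rats, against 8.19 ± 0.44 in control rats. The phenol sulfotransferase gene Sult1a1 measured 7.16 ± 0.51 in noodle-diet rats, against 7.43 ± 0.38 in control rats. Their differences were 0.0098, -0.031, 0.085 and -0.26, with unadjusted p from 0.377 to 0.878 and an adjusted p of 1 by limma.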

How the data were processed

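Total RNA of each hypothalamus was extracted with TRIzol, cleaned on a column and made into biotin-labelled cRNA from 100 ng (per the labels' protocols). As deposited, the data are log2 values of 31099 probe sets on 9 arrays. That the scale is log2 was read from the span of the values (5.13 to 13.7), and their summarization and normalization by the authors are not stated in the sources used here. Array medians lay between 6.777 and 6.785, so nothing was rescaled, and pairwise correlations between arrays ran from 0.997 to 0.999. The number of arrays limits the precision.

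The 57 manufacturer's control probe sets were left out. Probe sets were named from the platform annotation, where 20826 of 31042 have 1 symbol, and 20758 of those were found in a rat gene table (assembly GRCr8). Diets were compared with limma 3.58.1 in R 4.3.3 (lmFit, eBayes with an intensity trend, 2-sided, threshold 0.05), as noodle minus control, tested on simulated data. The limma p-values set the difference between the diet means against the spread between rats within the diets. With 1 array per rat, that spread holds differences between rats and between arrays together.

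Members, lists and limits (0.05 and 0.01 log2 units) were chosen with earlier results of these data known. Named were all members, variable genes of the pathway list, the 4 genes most like each variable member, and markers. Correlations used exact permutation over rats. The alternatives tried were a common median for the arrays, quantile normalization, no trend, array weights, a robust variance model, variable probe sets alone, leaving out means under the 25th percentile, flooring values at the 20th, an adjusted p under 0.10, averaged probe sets and leaving out each rat.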

Additional observations from a re-analysis of the deposited data

Results flagged for a closer look

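In 46 groups examined (both diets for the 13 probe sets, the 4 variable genes of the wider pathway and 6 marker lists), 1 held a rat well apart from its diet mates. Chance alone flags about 1 group in 20. Ddc 1375317_at stood at 6.7391 in noodle-diet rat 1, with the other noodle-diet rats at 6.7398 to 6.7399. This probe set is compressed, and the gap is under 0.001 log2 units.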

How the results depend on the processing

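No alternative brought a histamine or monoamine probe set past an adjusted p of 0.05 by limma, and 0 passed at 0.10; the lowest adjusted p over all fits was 0.983. The one probe set with an unadjusted p under 0.05 was Hdc, after quantile normalization (0.0480) and without control rat 5. Hdc, Slc18a2 1369132_at and Maob kept their direction in every fit run, and with single rats left out they ran from 0.14 to 0.27, 0.14 to 0.28 and 0.068 to 0.14. Slc18a2 1369131_at ran from -0.0080 to 0.084, and Htr2c 1376980_at from -0.026 to 0.039, turning to 0.015 with array weights. Of the 8 compressed probe sets, 6 changed sign with the scaling and the 2 of Ddc did not. After quantile normalization Th stood at 0.00035, Slc18a2 1384933_at at -0.00054 and Maoa at 0.00098, and with a common array median Maoa stood at 4.2e-05, Hrh3 at 8.2e-06 and 8.4e-06, and Htr2c 1369860_a_at at 1.7e-05. With single rats left out Ddc 1375317_at ran from -0.00029 to 2.8e-05, Maoa from -4.5e-05 to 1.3e-05, Hrh3 from -9.1e-05 to 1.9e-05 and from -9.2e-05 to 1.1e-05, and Htr2c 1369860_a_at from -0.00011 to 3.3e-05. The compressed probe sets spanned up to 0.0136 log2 units after quantile normalization. The share of the wider pathway's probe sets higher on the noodle diet was 49.2%, 24.6% after quantile normalization and 45.7% with 1 probe set per gene. Over all probe sets the share was 48.0% on the values as deposited, and it is not given here for the other settings. By Spearman rho, the 4 genes most like a member kept 3 for Hdc and Htr2c and 1 for each of the others. No paired analysis was run, because the sample titles do not say which rats of the 2 diets were matched in the pair feeding. The cause of these changes was not tested, and 4 against 5 arrays limit what can be detected.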

Other observations

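Among the enzymes that convert monoamines or their products, Aldh1a1, Sult1a1 and Aldh2 varied between rats on both diets. Others of the wider list, such as Dbh, Pnmt, Hnmt, Aoc1 and Akr1b1, were compressed. Aldh1a1 measured 8.20, 8.38, 8.27 and 8.26 in noodle-diet rats 1, 4, 7 and 13, against 8.46, 8.53, 8.15, 8.38 and 7.44 in control rats 2, 5, 8, 11 and 14, with control rat 14 the lowest. Sult1a1 measured 7.75, 6.75, 6.73 and 7.43 in noodle-diet rats 1, 4, 7 and 13, against 7.66, 7.51, 7.87, 6.91 and 7.20 in control rats 2, 5, 8, 11 and 14, a span of 1.14 log2 units. Noodle-diet rats 4 and 7 lay below all 5 controls, and rats 1 and 13 among them. The mean of the meningeal and fibroblast markers was also low in noodle-diet rats 4 and 7 (-0.31 and -0.42 against the mean of the 9 rats) and in control rats 11 and 14 (-0.49 and -0.56), and high in noodle-diet rat 1 (0.68) and control rats 2, 5 and 8 (0.30, 0.22 and 0.48). Its part in the Sult1a1 values was not tested. Aldh2 was highest in control rat 5 (8.82) and lowest in control rat 14 (8.52), the rats at either end for Hdc.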
